A study of Mus musculus with 2 samples.

Results

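The 29 genes described here are Hox genes: Hoxa2 to Hoxa7, the 10 genes of the Hoxb cluster, the 9 genes of the Hoxc cluster, and Hoxd1, Hoxd3, Hoxd4 and Hoxd8. They were chosen by name from the 39 Hox genes annotated in the mouse, leaving out mainly the posterior ends of the Hoxa and Hoxd clusters. Of 21938 protein-coding genes in the annotation they are 29. Hox genes encode homeodomain transcription factors that lie in 4 clusters, and in each cluster the order of the genes matches the order of their expression along the body from head to tail. Polycomb proteins keep the silent genes of a cluster closed, and the zinc-finger protein CTCF, which halts the cohesin complex at loop boundaries, binds between Hox genes and separates silent from active stretches. The bladder forms in the caudal trunk, where posterior Hox genes are known to be expressed.

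Chromatin accessibility was measured by DNase-seq, which sequences the ends of fragments that DNase I releases from nuclei, in urinary bladder tissue of 4-day-old females of the hybrid mouse strain B6CASTF1/J. There was 1 group of 2 biological replicates, with no treatment and no contrast, so no test between groups was possible and each result is given as a pair of values. The labels number the females separately but give both the same donor identifier, so differences between the replicates are differences between these libraries, which may be technical. In whole tissue, fewer cells with an open site and less opening per cell cannot be told apart. Peak height is the deposited signal of a peak, counted in whole steps of 0.00466 in replicate 1 and 0.00417 in replicate 2. The median height was 0.512 over the 96518 peaks of replicate 1 and 0.321 over the 122870 of replicate 2, so replicate 1 had fewer peaks over the genome. A promoter peak is a peak overlapping the 500 bp on either side of any annotated transcription start site (TSS), in the looser of the deposited lists. The tissue label was read against marker genes. Both replicates had a promoter peak at all 5 smooth muscle markers and all 4 mesenchyme markers, beside 62.3% of all protein-coding genes. Of 5 urothelium markers 2 had one in both, Upk1b and Upk3a. Upk2 had one in replicate 1 alone, Krt5 in replicate 2 alone and Upk1a in neither. In the stricter lists of both replicates these counts were 4, 4 and 0, beside 55% of all genes. In the looser lists, none of the 3 leukocyte, 3 kidney, 2 hepatocyte or 2 peripheral nerve markers had a peak in both replicates. Of 4 central neuron markers 1 did, the homeobox gene Isl1, which was 1.26 and 0.867 high.

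Of the regions found in both replicates, 8 are shown. They were chosen after their footprints, short stretches protected from DNase I inside a peak, had been seen. They illustrate the CTCF-like letters described below and, at the Hoxa4 promoter, the SP1 box. Other regions of similar height are not shown, some without such letters and some with them, as at the Hoxa5, Hoxa7 and Hoxc10 promoters. The 8 sequences are given on the plus strand of mm10, over the bases that the tallest peaks of both replicates have in common. Capitals mark bases inside footprints of both replicates. The first lies between Hoxc9 and Hoxc8 at chr15:102987541-102987700, in an intron of a long annotated transcript of Hoxc5, and was the tallest region of the set by its mean height. The second lies between Hoxd8 and Hoxd4 at chr2:74715861-74716040, at the start of the antisense gene Hoxd3os1. The third lies between Hoxd9 and Hoxd8 at chr2:74702321-74702488. The next are 3 sites of the Hoxb cluster, at chr11:96294641-96294780 between Hoxb7 and Hoxb6, at chr11:96278901-96279042 between Hoxb9 and Hoxb8, and at chr11:96261661-96261840 between Hoxb13 and Hoxb9 in an exon of the noncoding gene Gm53. The last 2 are the promoters of Hoxb5 at chr11:96303158-96303340 and of Hoxa4 at chr6:52191861-52192040.
Between Hoxc9 and Hoxc8: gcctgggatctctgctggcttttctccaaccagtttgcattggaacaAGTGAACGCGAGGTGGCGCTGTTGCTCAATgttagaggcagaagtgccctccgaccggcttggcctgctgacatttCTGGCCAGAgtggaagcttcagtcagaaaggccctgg
Between Hoxd8 and Hoxd4: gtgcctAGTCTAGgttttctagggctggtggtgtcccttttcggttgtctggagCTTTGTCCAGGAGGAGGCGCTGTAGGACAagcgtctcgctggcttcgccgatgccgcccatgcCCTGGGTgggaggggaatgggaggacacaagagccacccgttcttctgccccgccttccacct
Between Hoxd9 and Hoxd8: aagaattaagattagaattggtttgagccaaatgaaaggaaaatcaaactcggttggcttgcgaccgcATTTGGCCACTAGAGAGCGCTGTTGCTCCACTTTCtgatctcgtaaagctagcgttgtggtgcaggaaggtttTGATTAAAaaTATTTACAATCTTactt
Between Hoxb7 and Hoxb6: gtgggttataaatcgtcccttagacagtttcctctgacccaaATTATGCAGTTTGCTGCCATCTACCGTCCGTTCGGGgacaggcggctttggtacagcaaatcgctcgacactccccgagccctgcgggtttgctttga
Between Hoxb9 and Hoxb8: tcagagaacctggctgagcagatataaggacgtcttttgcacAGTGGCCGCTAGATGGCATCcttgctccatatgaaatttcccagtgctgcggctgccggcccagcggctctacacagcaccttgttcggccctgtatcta
Between Hoxb13 and Hoxb9: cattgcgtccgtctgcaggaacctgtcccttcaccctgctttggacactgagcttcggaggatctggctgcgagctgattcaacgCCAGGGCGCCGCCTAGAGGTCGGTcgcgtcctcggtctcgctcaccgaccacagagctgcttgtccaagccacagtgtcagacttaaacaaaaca
Promoter of Hoxb5: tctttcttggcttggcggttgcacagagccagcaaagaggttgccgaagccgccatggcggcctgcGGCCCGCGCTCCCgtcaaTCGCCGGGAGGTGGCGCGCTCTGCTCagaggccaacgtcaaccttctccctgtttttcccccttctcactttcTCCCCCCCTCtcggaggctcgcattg
Promoter of Hoxa4: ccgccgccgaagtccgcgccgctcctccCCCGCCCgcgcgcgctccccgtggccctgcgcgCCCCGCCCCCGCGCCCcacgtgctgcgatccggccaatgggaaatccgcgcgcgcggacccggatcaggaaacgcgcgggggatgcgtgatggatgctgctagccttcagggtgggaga

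Both replicates had a promoter peak at 9 of the 29 genes, or 31.0%, beside 62.3% of all protein-coding genes. They were Hoxa3, Hoxa4, Hoxa5, Hoxa7, Hoxb5, Hoxb6, Hoxc10, Hoxc13 and Hoxd8. Another 9 genes had one in replicate 1 alone, beside 3.12% of all genes, and 0 in replicate 2 alone, beside 2.4%. The remaining 11, against 32.2% of all genes, had no peak in either replicate. Taken singly, replicate 1 had a peak at 18 of the 29 genes, beside 65.4% of all genes, and replicate 2 at 9, beside 64.7%. The stricter lists held a peak of both replicates at 7 of the 29, beside 55% of all genes, of replicate 1 at 12 (59.1% of all genes), of replicate 2 at 8 (56.6%), of replicate 1 alone at 5 (4.13%), of replicate 2 alone at 1, Hoxc13 (1.6%), and of neither at 16 (39.3%). Paralogue groups number the genes by their place in a cluster, from the head end upward. A peak of both replicates was found at 2 of 11 genes in groups 1 to 4, at 5 of 13 genes in groups 5 to 9 and at 2 of 5 genes in groups 10 to 13. Hox genes left out of this set, the 9 posterior genes of Hoxa and Hoxd, had a peak in both replicates at 7, and at 4 in the stricter lists. The peaks of those 7 were the lower, with median heights of 1.22 in replicate 1 and 0.792 in replicate 2. The medians of the 9 genes of this set with a peak in both were 2.17 and 1.54.

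**Figure D1:**
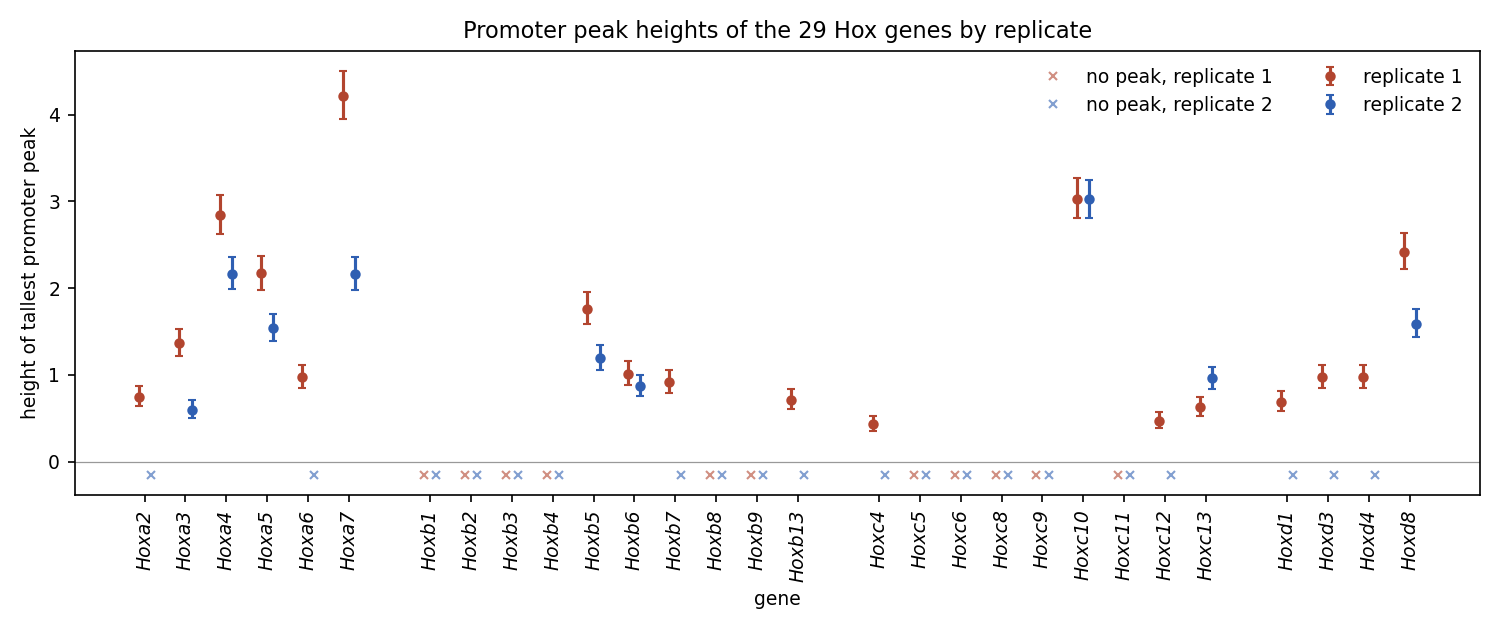
Height of the tallest promoter peak (deposited signal) of each of the 29 Hox genes, with replicate 1 in red and replicate 2 in blue; bars are exact 95% Poisson intervals from the whole steps, and crosses under the line mark genes with no peak. Replicate 1 has 18 genes with a peak and replicate 2 has 9, and Hoxc10 is the gene whose heights are nearest to each other.

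In the Hoxa cluster (chromosome 6, minus strand) all 6 genes had a promoter peak in replicate 1 and 4 had one in replicate 2. Hoxa7, which acts in patterning of the trunk, had the tallest promoter of the 29 in replicate 1, at 4.22 in replicate 1 and 2.16 in replicate 2. That peak was centred 13 and 23 bp past its most upstream TSS, at position 52221854, and at the pair of TSSs just upstream of its coding sequence, 52217452 and 52217505, the tallest peak was 2.67 and 1.38. Counted over its 5 TSSs, Hoxa7 had 9 peaks in replicate 1 and 6 in replicate 2. Hoxa4, a gene of the neck vertebrae, had 1 peak in each replicate, 2.84 and 2.17 high, whose centres lay at -208 and -198 bp from its TSS, where negative distances are upstream. Hoxa5, required for lung and trachea development, had 2.17 and 1.54, at -74 and -64 bp. At all of these genes replicate 1 was the higher and the position of the peak moved by at most 10 bp between replicates. At Hoxa3, which is needed for the thymus and parathyroid, the heights were 1.37 and 0.600. Both of these peaks belonged to the far upstream TSSs at 52213115 and 52213336, which lie between Hoxa6 and Hoxa7; the windows of its other TSSs, at 52183855 and 52184874, held no peak in either replicate. A further shared region, at chr6:52172641-52172820, lay in an annotated UTR next to the coding start of Hoxa3 and 150 bp from the start of the antisense gene Gm15050; it was 2.61 and 2.35 high and is counted between Hoxa3 and Hoxa4. Hoxa2, a gene of the hindbrain and pharyngeal arches, had a peak of 0.750 in replicate 1, centred in its coding sequence 471 bp past the TSS, and none in replicate 2. Hoxa6 had 0.978 in replicate 1, 61 bp past the TSS, and none in replicate 2.

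In the Hoxb cluster (chromosome 11, plus strand) the promoter peaks of both replicates lay in its middle, at Hoxb5 and Hoxb6. Hoxb5, which acts in the neural crest of the gut, had 1.76 in replicate 1 and 1.20 in replicate 2, centred at -95 and -87 bp from its TSS. Hoxb6 had 1.02 and 0.876 at its TSS at 96299171, and at its other TSS, 96292476, a peak of 0.927 in replicate 1 and none in replicate 2. Hoxb7 had 0.917 in replicate 1 alone. Hoxb13, the most posterior gene of the cluster, known in prostate and tail, had 0.712 in replicate 1 alone, at -19 bp. Neither of these last peaks was in the stricter list, and neither was any of the Hoxb6 peaks, so that Hoxb5 alone of the 10 genes was called in the stricter lists. The windows of Hoxb1, Hoxb2, Hoxb3, Hoxb4, Hoxb8 and Hoxb9 held no peak in either replicate; Hoxb1 and Hoxb2 pattern the hindbrain, Hoxb4 and Hoxb8 are best known from blood progenitors.

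In the Hoxc cluster (chromosome 15, plus strand) Hoxc10, a gene of the lumbar spinal cord and hindlimb, had 3.03 in replicate 1 and 3.02 in replicate 2, centred at -185 bp in both. It was the tallest promoter of the 29 in replicate 2. Hoxc13, required for hair and nails, had 0.633 and 0.963, at -210 and -202 bp, and only its replicate 2 peak was in the stricter list. A shared region in the intron of Hoxc13, at chr15:102922001-102922280, was 1.01 and 0.905 high. Hoxc12 had 0.470 in replicate 1, centred 394 bp past its TSS in the coding exon, and none in replicate 2. Hoxc4 had 0.433 in replicate 1 alone, at -102 bp from its TSS at 103034395. No peak was found in either replicate in the windows of Hoxc5, Hoxc6, Hoxc8, Hoxc9 or Hoxc11; Hoxc8 and Hoxc9 pattern the thoracic region and its motor neurons. The first TSS of Hoxc5, at 102967443, lies close to Hoxc10, and their windows overlap, but the Hoxc10 peak is outside the window of Hoxc5.

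In the Hoxd cluster (chromosome 2, plus strand) Hoxd8 had 2.42 in replicate 1 and 1.59 in replicate 2, centred at -64 bp from a TSS in both. Hoxd3 and Hoxd4, which pattern the neck vertebrae, share 1 peak of 0.978 in replicate 1, at chr2:74711801-74712236, so they are not independent entries in the counts. It lies at their common upstream TSSs, 74711927 and 74711929. The start sites nearer to their coding sequences, such as 74727074 for Hoxd4 and 74736515 for Hoxd3, had no peak in either replicate, and 1 pair of Hoxd3 start sites, 74745674 and 74745722, had a peak of 0.0978 in replicate 1. Hoxd1, known in mouse pain-sensing neurons, had 0.694 in replicate 1 alone, at -58 bp.

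Replicate 1 was the higher at 8 of the 9 promoters with a peak in both, and Hoxc13 was the exception. The median log2 ratio of replicate 1 over replicate 2 was 0.50 (SD 0.53, n = 9 genes), beside 0.41 (SD 0.27) over the 13670 genes with a promoter peak in both. The ratio of a gene has an exact 95% interval from its steps that covers counting error only, and for 5 of the 9 genes this interval did not include 0.41, beside 41.4% of the 13670 genes. Hoxa3 had the largest ratio, 1.19 (0.90 to 1.49), at the 99.8th percentile of all genes. Hoxa7, at 0.96 (0.81 to 1.12), stood at the 98.6th percentile. For Hoxd8, with 0.60 (0.41 to 0.80), the lower bound only just passed the median of all genes, and its ratio stood at the 79.9th percentile. Hoxc10, at 0.00 (-0.15 to 0.16), and Hoxc13, at -0.60 (-0.92 to -0.29), lay below it, at percentiles 6.96 and 0.344 of all genes. The ratios of Hoxa4 (0.39), Hoxa5 (0.50), Hoxb5 (0.56) and Hoxb6 (0.21) had intervals that include 0.41. Mean heights were 3.19 ± 1.45 for Hoxa7, 3.03 ± 0.00603 for Hoxc10, 2.50 ± 0.475 for Hoxa4, 2.01 ± 0.586 for Hoxd8 and 0.985 ± 0.543 for Hoxa3 (SD, n = 2 each), beside a median of 2.23 over all genes with a peak in both. An SD from 2 values is itself imprecise, and the near-zero SD of Hoxc10 is smaller than its counting error, since its heights rest on 651 steps in replicate 1 and 725 in replicate 2.

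**Figure D2:**
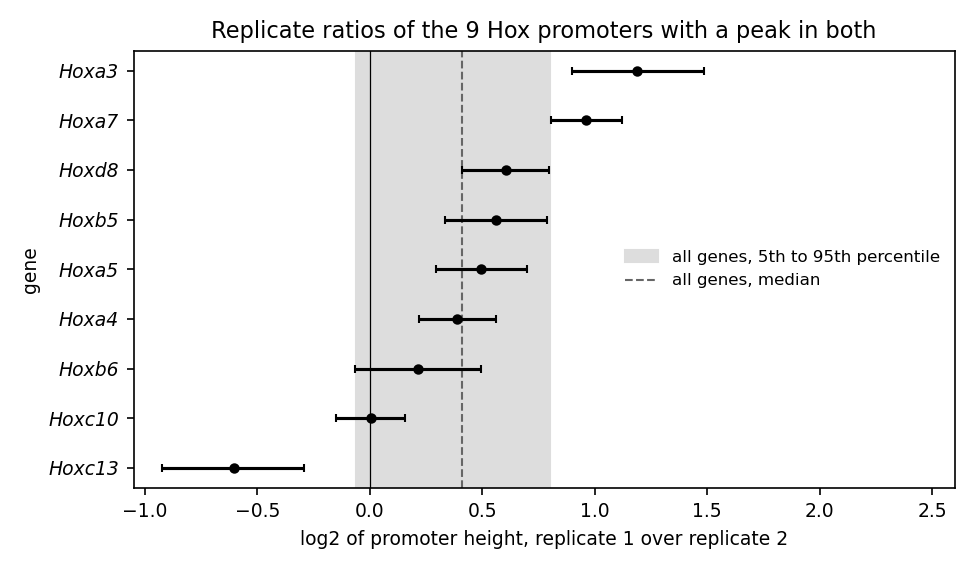
Log2 ratio of promoter height, replicate 1 over replicate 2, for the 9 Hox genes with a peak in both, with exact 95% intervals that cover counting error; the grey band runs from the 5th to the 95th percentile of all 13670 genes and the dashed line is their median. Hoxa3 and Hoxa7 lie above the band and Hoxc13 below it.

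Footprints and the rate lists gave nearly the same picture as the peaks. They were made from the same alignments as the peaks of each sample, so this likeness is not separate evidence. A footprint in the promoter window was found in both replicates at 9 of the 29 genes, the 9 with a peak in both, beside 60.5% of all genes, in replicate 1 at 17, beside 64.1%, and in replicate 2 at 9, beside 62.7%. Hoxb13 was the gene with a replicate 1 peak and no footprint. Hoxa7 had 18 footprints in replicate 1 and 14 in replicate 2, Hoxa3 had 6 and 9, and Hoxa5 had 8 and 4. Hoxa6 and Hoxc12 had 13 each in replicate 1 and 0 in replicate 2. Bases are listed where the rate of DNase I cuts passed a false discovery rate of at most 0.05. In replicate 1 such bases covered the whole window of Hoxa5, Hoxa6 and Hoxc12, and in replicate 2 they covered 20.7% of the Hoxa5 window and none of the Hoxa6 and Hoxc12 windows. The median window of all protein-coding genes was covered to 17.4% in replicate 1 and 13.0% in replicate 2. That of the 29 genes was covered to 8.99% and 0%, and that of the 9 posterior genes of Hoxa and Hoxd to 99.3% and 15.9%. At least 1 base of the window was listed at 18 of the 29 genes in replicate 1, beside 66.4% of all genes, and at 12 in replicate 2, beside 65.8%. None of the 11 genes without a peak had a listed base in replicate 1. In replicate 2, 2 of them did, with 1.25% of the window at Hoxb2 and 4.12% at Hoxb9.

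Between and around the 29 genes replicate 1 had more peaks than replicate 2, the opposite of the genome as a whole. Taking the coding sequences of the 29 genes with the gaps next to them, 421.4 kb in all, replicate 1 had 128 peaks and replicate 2 had 43, a ratio of 2.98, while over the genome the ratio was 0.786. Merged over replicates, and with the Hoxc13 promoter peak that lies just outside the coding stretch included, there were 38 shared regions, 82 in replicate 1 alone and 5 in replicate 2 alone. Of the regions with a replicate 1 peak, 31.7% were shared, beside 57.9% over the genome. Most regions of replicate 1 alone were low: 81 of the 82 were under a height of 1, with a median of 0.400. Over all replicate 1 peaks of the genome the median was 0.512. The share under 1 among the 38830 regions of replicate 1 alone in the genome is not given here, so these low heights are not read as particular to the Hox genes. The median height of the shared regions was 1.07 in replicate 1 and 0.934 in replicate 2. Listed bases covered 10.5% in replicate 1 and 2.73% in replicate 2, beside 1.18% and 1.30% of the genome. All 4 clusters showed more peaks in replicate 1 than in replicate 2: 59 and 23 in Hoxa, 22 and 8 in Hoxb, 28 and 4 in Hoxc, and 19 and 8 in Hoxd. Per 10 kb this was 8.94 and 3.48 in Hoxa, 1.26 and 0.460 in Hoxb, 2.42 and 0.346 in Hoxc, and 2.89 and 1.22 in Hoxd, so the Hoxa stretch was the densest in both replicates.

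**Figure D3:**
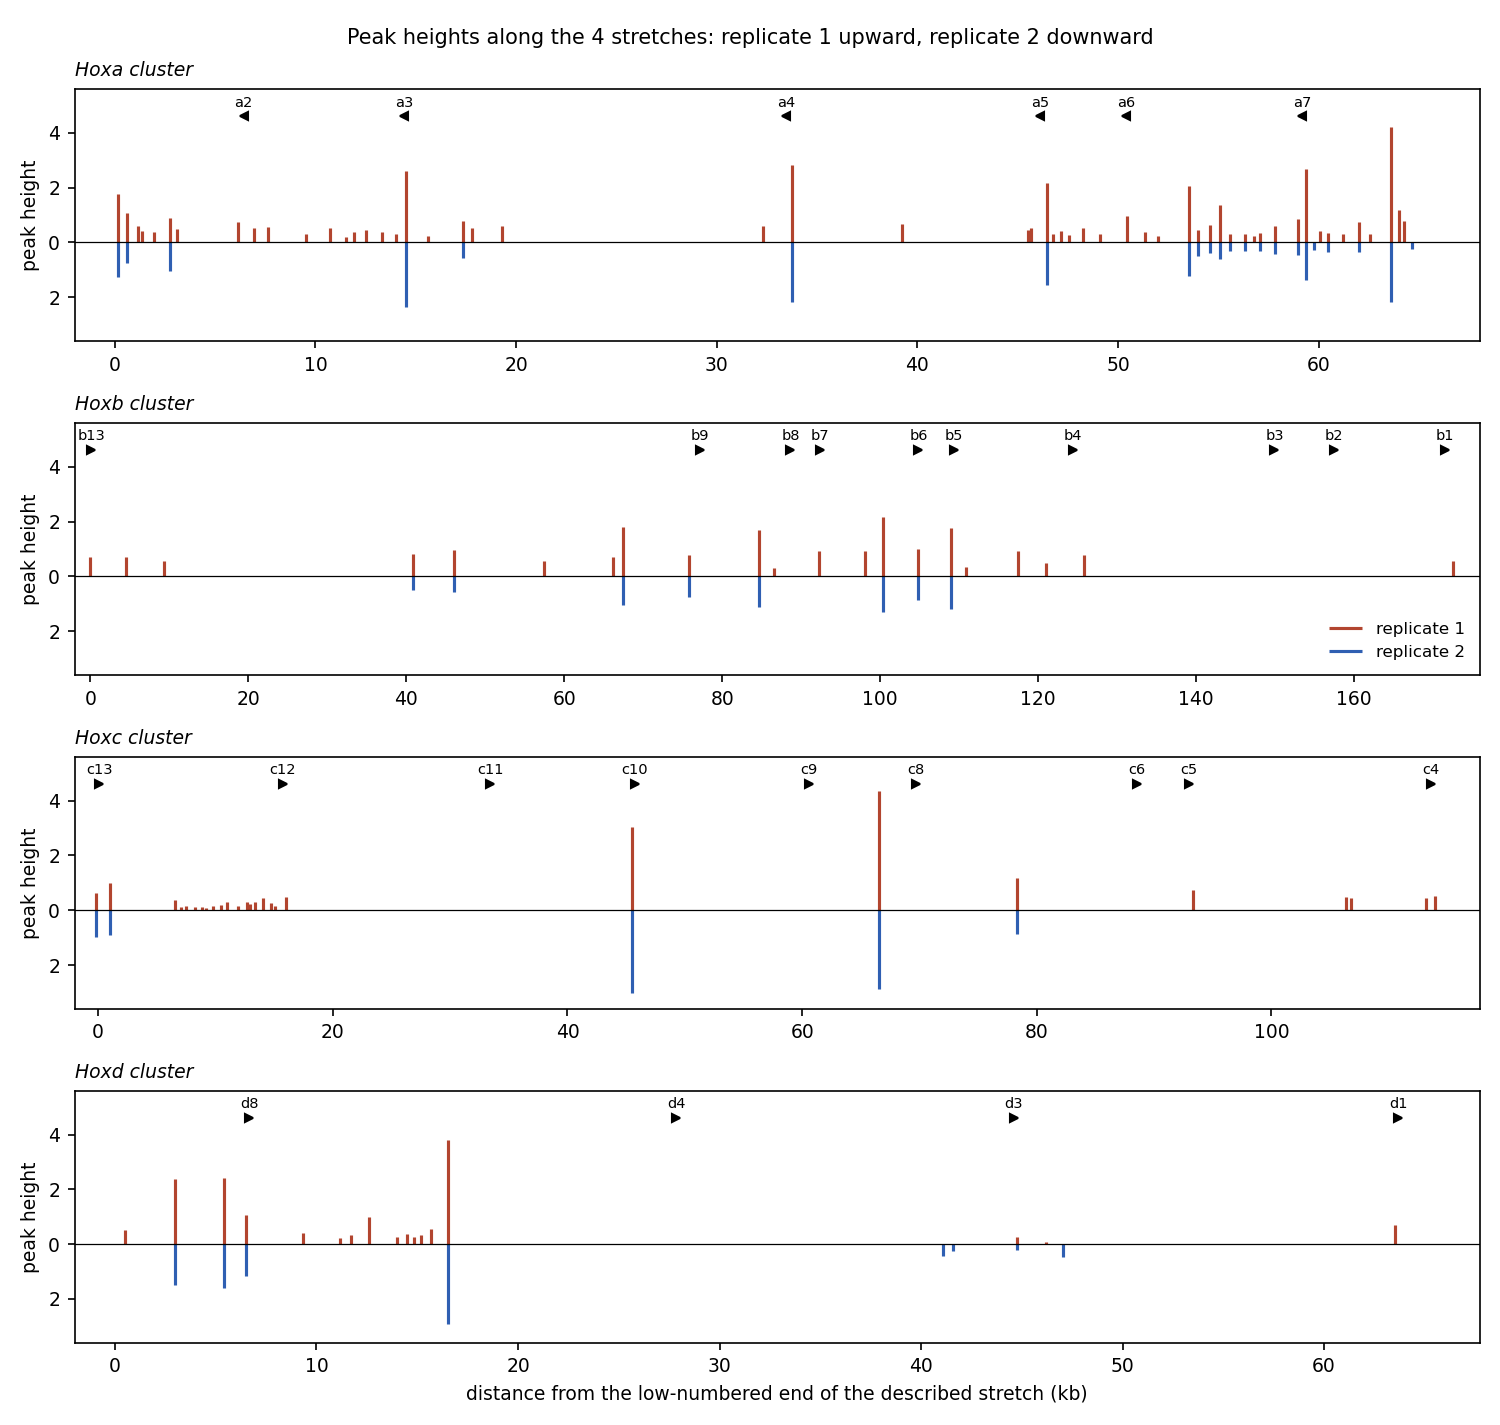
Height of every merged region along the described stretch of each cluster, with replicate 1 drawn upward in red and replicate 2 downward in blue, against distance in kb; arrowheads mark the coding start and direction of each of the 29 genes. Tall regions appear in both replicates, and the rows of low lines next to Hoxc12, Hoxa5 and Hoxd8 are in replicate 1.

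The clearest difference was the 9.43 kb gap between Hoxc13 and Hoxc12. Replicate 1 had 15 regions there and replicate 2 had 0. The heights were low, from 0.0885 to 0.433. Of the 15 regions 13 were in the stricter list, beside 61623 stricter and 96518 looser peaks of replicate 1 over the genome. The lowest false discovery rate within each region ran from 1.12e-32 to 0.00172. In replicate 1, 80.2% of the gap, taken over its whole length with any promoters in it, was listed, against no base in replicate 2. Of 272543 bins of 10 kb over the genome, 626 were listed to at least 50% in replicate 1, and 115 of these not at all in replicate 2. In replicate 2, 1022 bins were listed to at least 50%, and 366 of these not at all in replicate 1. The promoter of Hoxc13, on one side of the gap, had its taller peak in replicate 2. The gap between Hoxa5 and Hoxa6 (2.02 kb) was listed to 99.6% in replicate 1 and 10.3% in replicate 2, and the one between Hoxa6 and Hoxa7 (7.09 kb) to 82.6% and 33.7%. Between Hoxd8 and Hoxd4, replicate 1 had 9 regions and replicate 2 had 1, with 18.4% and 1.28% of the gap listed. The reverse was seen between Hoxd4 and Hoxd3, where no base was listed in replicate 1 and 7.17% was in replicate 2, with 2 low regions, 0.425 and 0.246 high, in replicate 2 alone. What sets these stretches apart between the replicates was not tested.

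**Figure D4:**
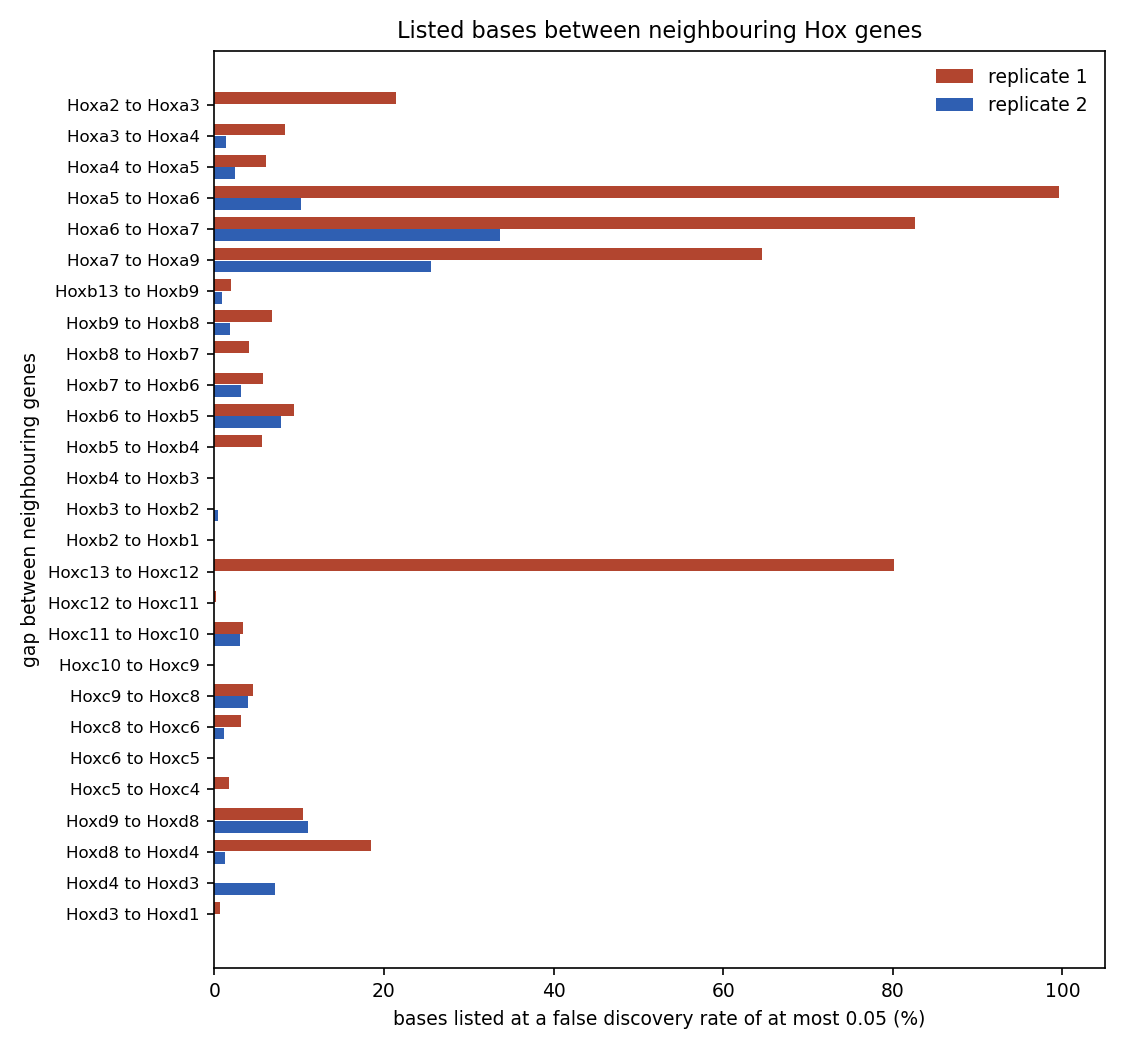
Percent of bases listed at a false discovery rate of at most 0.05 over the whole length of the gaps between coding sequences of neighbouring Hox genes, promoters included, with replicate 1 in red and replicate 2 in blue. The gap from Hoxc13 to Hoxc12 reaches 80.2% in replicate 1 and has no bar in replicate 2, and the gap from Hoxd4 to Hoxd3 shows the opposite.

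Of 28 gaps, 10 held a region shared by both replicates, 17 such regions in all, of which 6 were in the stricter lists of both replicates. Another 6 gaps held regions of replicate 1 alone, 10 held none in either, and the other 2 held unshared regions that included a replicate 2 peak. The empty gaps included those between Hoxb4 and Hoxb3, Hoxb3 and Hoxb2, Hoxb2 and Hoxb1, Hoxc10 and Hoxc9, and Hoxc6 and Hoxc5. So from Hoxb4 to Hoxb1 there were neither promoter peaks nor peaks between the genes; what was left were peaks of replicate 1 alone inside the coding spans of Hoxb4, 0.773 high, and Hoxb1, 0.549 high. Replicate 1 was the higher in 14 of the 17 shared regions. It was also the higher at most promoters of the genome. Over the 13670 genes with a promoter peak in both, the log2 ratio had a 25th percentile of 0.248 and a 5th percentile of -0.0613. The direction is therefore not read as particular to the gaps. Between Hoxc9 and Hoxc8, the region printed first above was 4.37 high in replicate 1 and 2.89 in replicate 2, although neither gene beside it had a promoter peak. Between Hoxd8 and Hoxd4, the region at Hoxd3os1 was 3.79 and 2.91 high. Between Hoxd9 and Hoxd8 the heights were 2.37 and 1.47. All 3 were higher in replicate 1. In Hoxb, the gap regions that were printed were 2.17 and 1.31 high between Hoxb7 and Hoxb6, 1.70 and 1.12 between Hoxb9 and Hoxb8, and 1.82 and 1.03 between Hoxb13 and Hoxb9. Each of these was taller than the Hoxb6 promoter in both replicates, and the first was also taller than the Hoxb5 promoter, which made it the tallest region of the Hoxb stretch in both. Between Hoxa6 and Hoxa7 a region at chr6:52211621-52211860 was 2.08 and 1.22 high, and between Hoxc8 and Hoxc6 one at chr15:102999201-102999640 was 1.18 and 0.855.

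The sequences printed above were chosen with their letters in view, so how many of them share a feature is no result. The capitals run through GGTGGCGCTGTT between Hoxc9 and Hoxc8, and through the close GGAGGCGCTGTA between Hoxd8 and Hoxd4. These letters resemble the binding sequence of CTCF, and the consensus of CTCF, 14 positions long, was therefore searched on both strands in the central 150 bp of each shared region, allowing up to 2 mismatches. This search was added after the footprint sequences had been seen. A match was found in 12 of the 38 shared regions, 31.6%, beside 28.9% of the 53490 shared regions of the genome and 36.6% of those over 1000 bp from a TSS. With the regions split at a mean height of 1, a value chosen after the heights were seen, of the 18 regions with a mean height of at least 1, 9 had a match, or 50%, beside 37.0% of the 21030 such regions of the genome. In all 9 it lay under a footprint in both replicates, as did 83.9% of the matches in those regions genome-wide. Of the 20 lower regions 3 had a match, or 15%, beside 23.6% genome-wide, and 1 of these was under a footprint in both, beside 59.1% of matches genome-wide. With so few regions, nothing particular to the Hox genes is read from these shares. Of the 9 tall matches, 5 were on the plus strand and 4 on the minus strand.

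With 1 mismatch each, the nearest matches were CCAGCGGGTGGCGC at the Hoxa5 promoter (chr6:52204657-52204670, minus strand), CCAGGAGATGGCAG at the upstream TSS of Hoxa7 (chr6:52221807-52221820, minus strand) and CCACTAGAGAGCGC between Hoxd9 and Hoxd8 (chr2:74702395-74702408, plus strand). Those with 2 mismatches included the Hoxb5 promoter, the region between Hoxd8 and Hoxd4, and the 3 printed regions between Hoxb genes. The tallest region by mean height, between Hoxc9 and Hoxc8, had 3 mismatches and is not counted. A match is a description of letters; no binding of CTCF was measured. A stricter core of the same consensus, with no mismatch allowed, matched in 2 of the 38 regions, at Hoxa7 and between Hoxd8 and Hoxd4, or 5.26% beside 11.7% of all shared regions.

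Other letters were counted in the same windows, on both strands. TGATNNAT, written for HOX and PBX proteins bound together, was in 4 of 38 regions, 10.5% beside 2.39% of all shared regions. All 4 were in Hoxa, the printed Hoxa4 promoter among them, and none lay under a footprint in both replicates. TTTATNG, a letter string of the CDX proteins that activate Hox genes in the embryo, was in 5, or 13.2% beside 2.93%, also with no footprint in both. CCAAT was in 11, 28.9% beside 18.5%, and GGGCGG, the box of SP1, in 8, 21.1% beside 26.4%. In the Hoxa4 promoter printed above, both runs of capitals hold the SP1 box on the minus strand. The homeobox core TAATTA and the DR5 and DR2 retinoic acid elements were in none of the 38 windows, beside 0.892%, 0.0262% and 0.00748% of all shared regions. The core string of the MEIS proteins, which also bind DNA with HOX proteins, went the other way from the HOX and PBX string. It was in 1 of 38 regions, 2.63% beside 9.71% of all shared regions. The string of AP-1 was in 2, 5.26% beside 4.50%, and that of NFI in none, beside 0.125%. These counts are small, and nothing particular to the Hox genes is read from them. Of the 38 regions, 31 had a footprint in both replicates, 81.6% beside 79.2% of all shared regions.

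The noncoding genes inside the 4 stretches numbered 31, and 7 had a promoter peak in both replicates, beside 9.85% of the 33475 annotated genes that do not code for protein. Another 4 had one in replicate 1 alone, beside 2.47%, and 20 in neither, beside 84.5%. These are not independent entries: Hotairm1 and Gm27867 share 1 peak, 1.77 and 1.25 high, and some of the peaks are also those of the Hox genes or gaps given above. Hoxd3os1 was the tallest, at 3.79 and 2.91. Haglr, which shares its start region with Hoxd1, had 0.694 in replicate 1 alone, from the peak already given for Hoxd1. Mir615, inside the Hoxc5 gene, had 0.745 in replicate 1 alone. Hotair, the long noncoding RNA between Hoxc12 and Hoxc11, and the microRNA genes Mir10a, Mir10b, Mir196a-1 and Mir196a-2 had no peak in either replicate.

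Genes that act with or on Hox genes were counted in the same way. The TALE cofactors are the homeodomain partners that bind DNA together with HOX proteins, and both replicates had a peak at 9 of 9, beside 62.3% of all genes, with mean heights from 0.902 at Meis3 to 4.10 at Pknox1. Meis1 had 2.78 in replicate 1 and 2.24 in replicate 2. Of 20 Polycomb and trithorax genes, which keep Hox genes silent or active, 19 had a peak in both. The exception, Kmt2d, had 0.875 in replicate 1 and none in replicate 2. Ezh2, the histone methyltransferase of Polycomb complex PRC2, had 4.97 and 3.53, and Kmt2a, its trithorax counterpart at Hox genes, had 6.90 and 4.45. Of 10 genes of the Cdx family and of retinoic acid signalling, which start Hox expression in the embryo, 7 had a peak in both, and 6 in the stricter lists, beside 55% of all genes. Cdx1 and Cdx2 had none in either, Cyp26a1, which degrades retinoic acid, had 0.417 in replicate 2 alone, and Aldh1a2, which makes it, had 1.53 and 1.16. Rarg, a retinoic acid receptor, had 4.37 in replicate 1 and 1.13 in replicate 2.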

How the data were processed

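DNase-seq peaks, footprints and rate lists of 2 replicates in 1 group were used on assembly mm10. Per the labels, each sample's lists were made from its own filtered alignments; the aligner, callers and thresholds were not stated there. The deposited peak height is a signal whose scale the descriptions do not name; every height was a whole number of sample-specific steps (tolerance 0.02 steps), and the relative depth from the steps was 1.12, while total depth is unknown. In the rate lists the authors deposited a q-value, the false discovery rate of each stretch, up to 0.05. The deposited p-value of every footprint is 0.01, so footprints were not ranked. Of the 2 peak lists per sample the longer, looser one was used except where stated.

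Genes and TSSs came from GENCODE M21. Overlapping peaks of both replicates (at least 1 bp) were merged into regions, placed by their centre; gaps run between the principal coding sequences of neighbouring Hox genes, at least 1 of them among the 29. Regions in promoter windows were counted with the promoters, while listed bases were taken over whole gaps. Intervals at the 95% level are exact Poisson for heights and exact conditional for ratios, and cover counting error only. No test was made, since 1 group of 2 gives no contrast. Assignment and intervals were checked on simulated data. The 29 genes and all lists were chosen with earlier results of these data known; all 29 genes are described, with full values where a peak was found. Sequences were read from the GRCm38 reference, whose chromosome lengths match mm10. The mice were hybrids, so letters at which an allele differs from this reference were not read. Python 3.11.15, numpy 2.4.6, pandas 2.3.3, scipy 1.17.1 and matplotlib 3.10.9 were used.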

Additional observations from a re-analysis of the deposited data

How the results depend on the processing

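The 9 genes whose promoter had a peak in both replicates became 7 in the stricter lists and 8 with the gene-level start alone. They stayed 9 with a window of 250 bp or an overlap of 50 bp. With a window of 1000 bp they became 12, where Hoxc5, Hoxc6 and Hoxd3 were added. Hoxc5 was added through the peak already counted for Hoxc10. Hoxd3 was added through peaks at different start sites, 0.978 high in replicate 1 and 0.484 in replicate 2. From a single replicate the count was 9 to 18. The 17 regions between genes became 6 in the stricter lists, 17 with an overlap of at least 50% of the shorter peak, and 20 to 69 from a single replicate. The 9 genes with a footprint in both ranged from 8 to 12 over start sites and windows, and from 9 to 17 from a single replicate. The median log2 ratio of 0.50 ranged from 0.34, in whole steps without depth scaling, to 0.56, in the stricter lists. The mean share of listed bases, 6.64 ± 5.53% (SD, n = 2), was 4.53% at rates of at most 0.001, 2.73% without replicate 1 and 10.5% without replicate 2. No paired analysis was possible because there was 1 group. Total depth is unknown, and whether sites of replicate 1 alone were closed in replicate 2 was not tested.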
